A study of Homo sapiens with 2 samples.

Results

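Genes that mark the cell's answer to interferon and to double-stranded RNA were read on 2 arrays of RNA recovered by immunoprecipitation from transfected 293T cells. The members were taken by their symbol in the platform annotation and comprise the transcription factors IRF1, IRF3, IRF9 and STAT2, the interferon-stimulated genes ISG15, IFIT1 and OAS1, and the double-stranded RNA binding enzymes EIF2AK2 and ADAR. Of these 9 genes, 8 had probe sets annotated with 1 symbol, 12 probe sets in all, out of 19775 genes so annotated on the array. STAT2 had none in the annotation used and is not analysed here.

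293T is a transformed human embryonic kidney line that carries the SV40 large T antigen. The miR-941 array held RNA from cells transfected with synthetic miR-941, pulled down with an Ago2 antibody. Ago2 is the protein that holds microRNAs on mRNAs. The control array held RNA from cells given a scrambled oligonucleotide. Both were used at 30 nmol/l. The control's title and description name an Ago2 precipitate, while its antibody entry names nonimmune IgG beads. Its description also speaks of a mock transfection, where its treatment entry names the scrambled oligonucleotide. The transfected molecule and the antibody therefore cannot be told apart if the antibody entry holds, and it is not settled whether the control cells received an oligonucleotide at all. Each group had 1 array, so no test was possible, no p-value is given, and the number of arrays limits the precision. No array of untransfected cells and none of total RNA was analysed here, so a response shared by both transfections would not show as a difference, and mRNA recovered in a precipitate need not follow mRNA in the cells.

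Cells sense double-stranded RNA through RIG-I-like receptors and Toll-like receptors, whose adaptors switch on IRF3 and with it the interferon beta gene. Secreted interferon then acts through its receptors and Janus kinases on a complex that holds STAT2 and IRF9 and binds the interferon-stimulated response element (ISRE) of genes such as ISG15, IFIT1 and OAS1. Long double-stranded RNA also activates the kinase PKR, made by EIF2AK2, while ADAR edits adenosines in such duplexes.

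The transfected microRNA is shown first because it is the agent under study. Mature miR-941 in RefSeq (GRCh38.p14) is encoded by 5 identical copies on chromosome 20, the first at chr20:63919495-63919517 on the plus strand. It is written here with its seed, bases 2 to 8, in capitals. The labels do not give the sequence of the synthetic molecule or of the scrambled one.
hsa-miR-941: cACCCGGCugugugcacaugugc

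The promoters of 5 members are shown because they hold matches to elements through which interferon acts. They run from 250 bases before to 50 after the RefSeq start site (GRCh38.p14), and capitals mark matches on either strand to the ISRE core (GAAA, any 2 bases, GAAA) or to the core of the gamma-activated site, GAS, that STAT dimers bind (TTC, any 3 bases, GAA).
ISG15 (chr1:1013247-1013546, plus strand): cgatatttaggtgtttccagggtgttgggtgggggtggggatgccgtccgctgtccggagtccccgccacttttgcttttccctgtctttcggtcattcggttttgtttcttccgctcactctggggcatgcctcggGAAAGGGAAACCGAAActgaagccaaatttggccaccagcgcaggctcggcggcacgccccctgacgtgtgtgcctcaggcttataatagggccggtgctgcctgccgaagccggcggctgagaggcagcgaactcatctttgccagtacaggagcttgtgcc
IFIT1 (chr10:89392373-89392672, plus strand): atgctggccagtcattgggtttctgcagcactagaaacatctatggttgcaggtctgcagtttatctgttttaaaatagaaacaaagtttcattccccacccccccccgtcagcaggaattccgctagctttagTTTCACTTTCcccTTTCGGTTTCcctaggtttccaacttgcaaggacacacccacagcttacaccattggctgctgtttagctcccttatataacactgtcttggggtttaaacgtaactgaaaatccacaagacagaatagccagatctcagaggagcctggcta
EIF2AK2 (chr2:37156931-37157230, minus strand): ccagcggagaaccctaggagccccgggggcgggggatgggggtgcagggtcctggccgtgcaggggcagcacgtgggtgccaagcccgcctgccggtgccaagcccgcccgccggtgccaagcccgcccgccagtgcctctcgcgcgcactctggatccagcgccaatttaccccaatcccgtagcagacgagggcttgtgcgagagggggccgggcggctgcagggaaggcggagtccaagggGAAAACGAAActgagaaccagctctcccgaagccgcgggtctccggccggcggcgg
IRF1 (chr5:132490724-132491023, minus strand): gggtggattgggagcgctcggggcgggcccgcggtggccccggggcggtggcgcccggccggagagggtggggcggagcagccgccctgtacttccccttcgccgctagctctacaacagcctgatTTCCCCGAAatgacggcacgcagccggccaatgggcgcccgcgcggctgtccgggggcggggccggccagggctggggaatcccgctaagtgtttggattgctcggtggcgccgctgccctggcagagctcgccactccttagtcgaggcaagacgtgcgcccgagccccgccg
IRF9 (chr14:24161015-24161314, plus strand): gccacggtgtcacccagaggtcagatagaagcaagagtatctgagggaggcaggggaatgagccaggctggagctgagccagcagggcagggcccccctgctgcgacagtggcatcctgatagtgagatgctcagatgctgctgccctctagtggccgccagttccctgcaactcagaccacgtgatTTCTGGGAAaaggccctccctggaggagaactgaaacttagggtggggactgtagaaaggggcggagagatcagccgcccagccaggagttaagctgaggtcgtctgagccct

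Of the 8 members with a promoter in the RefSeq table, ISG15 and IFIT1 held 2 ISRE cores each, overlapping in ISG15, and EIF2AK2 held 1. IRF1, IRF9 and OAS1 held 1 GAS core each, and the promoters of STAT2 and ADAR, which has 3 listed, matched neither pattern in this window. The OAS1 promoter also holds GAAA, 1 base and GAAA, which the ISRE pattern used here, with 2 bases between, cannot match. Of all 35116 promoters in the table, 3.57% held the ISRE core and 7.66% the GAS core. A match describes letters and is not a measured binding site.

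Readings are expression values that the authors deposited for each probe set, taken here as log2, and differences are the miR-941 array minus the control array. A gene was counted as detected when its brightest probe set had a mean over both arrays above 0.92, which is the median level of the probe sets that are not array controls. By this rule 7 of the 8 members were detected, where 66.5% of all genes were. The lowest of these was IRF3, with a mean of 1.87, and the gene below the level was OAS1, with a mean of 0.31. None of the 7 differed by 2-fold or more between the arrays, as 0.517% of the 13150 detected genes did. Of the 7, 2 read higher on the miR-941 array, 3 lower and 2 equal, with a median difference of 0.00, against 46.3% higher, 42.4% lower and 11.2% equal among all detected genes, whose median was also 0.00.

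**Figure D1:**
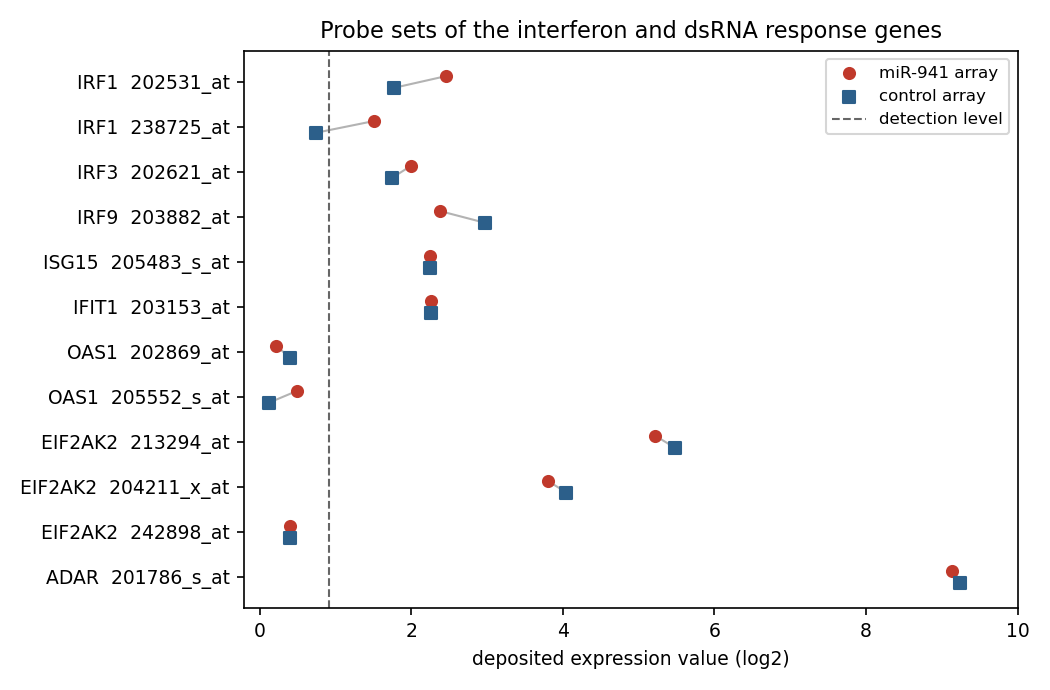
Deposited log2 expression value of each of the 12 probe sets of the 8 measured members on the miR-941 array (circles) and the control array (squares), with the detection level dashed. Both IRF1 probe sets lie higher on the miR-941 array and the IRF9 probe set lies lower, while the ISG15 and IFIT1 symbols line up at the same value on both arrays.

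IRF1, a transcription factor induced by interferon gamma and by viral RNA, was the member with the largest positive difference. Its main probe set, 202531_at, read 2.46 on the miR-941 array and 1.78 on the control array, a difference of 0.68 or 1.61-fold. Its second, 238725_at, read 1.51 on the miR-941 array and 0.75, below the detection level, on the control array, a difference of 0.76 or 1.70-fold. IRF1 was therefore higher on the miR-941 array by both of its probe sets. Among all 3528 genes with 2 detected probe sets, both differed the same way in 44.0%. The brighter IRF1 reading was still low, and both probe sets share 1 hybridisation per array, so they are not replicates.

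IRF9, the subunit that brings STAT2 to DNA, had the largest negative difference. Its probe set 203882_at read 2.38 on the miR-941 array and 2.97 on the control array, a difference of -0.59 or 0.66 times the control value. No second probe set with 1 symbol was there to set beside it. IRF3, the factor that is phosphorylated after RNA sensing and turns on interferon beta, read 1.99 on the miR-941 array and 1.75 on the control array by its 1 probe set, a difference of 0.24. The activity of IRF3 is controlled at the protein, so its mRNA reading does not report whether it was switched on.

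IRF1 and IRF9 were the 2 members past 1.5-fold, 1 in each direction, where 5.83% of all detected genes were past 1.5-fold in either direction. Dim genes spread more, so the 5 dim members were also read against the 2545 detected genes with a mean level between 1.5 and 3, a range chosen after the values were seen. Of those, 12.7% were past 1.5-fold and 1.45% past 2-fold, and their differences had an SD of 0.39. The differences of IRF1 and IRF9 lay beyond 1 SD of those genes and that of IRF3 within it. Detected probe sets of the same gene, pooled over 6106 genes, had an SD of 0.31 among their differences. Probe sets of one gene share the same arrays and may read different parts of its transcripts. This SD therefore does not measure variation between arrays or samples.

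**Figure D2:**
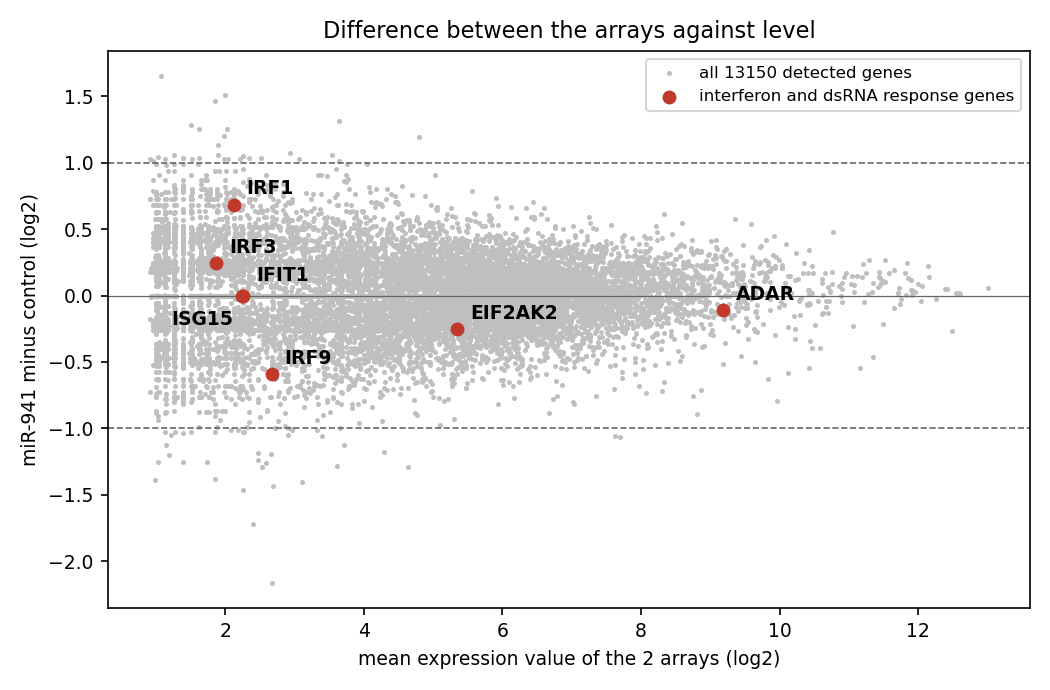
Difference between the arrays (miR-941 minus control, log2) against the mean of both arrays (log2) for the brightest probe set of each of the 13150 detected genes (grey) and of the 7 detected members (red). Dashed lines mark 2-fold, and the members all lie between them.

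The interferon-stimulated members ISG15 and IFIT1, whose promoters with their ISRE cores are printed above, read the same on both arrays. ISG15, a ubiquitin-like protein that is conjugated to other proteins after interferon, read 2.25 on both the miR-941 array and the control array by probe set 205483_s_at. IFIT1, which binds RNA that lacks the marks of the cell's own mRNA caps, read 2.26 on both by probe set 203153_at. Each pair was identical to 6 decimals. OAS1, which makes oligoadenylates when it binds double-stranded RNA, was below the detection level on both arrays by both probe sets. Probe set 202869_at read 0.22 on the miR-941 array and 0.40 on the control array, and 205552_s_at read 0.49 on the miR-941 array and 0.13 on the control array. The OAS1 probe sets thus differed in opposite directions, by -0.18 and 0.37, below the level at which a gene was counted as detected.

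Identical readings are common in this table and do not show equal amounts of mRNA. Of all 54675 probe sets, 11808 held the same value on both arrays, and among the detected genes with a mean level between 1.5 and 3 that share was 17.0%. Readings also recur between unrelated probe sets: 14 others had the ISG15 value on the miR-941 array and 12 had it on the control array, and 11 others had the IFIT1 value on each array. Sizes of difference recur too. The IRF3 difference of 0.24 was shared, to 6 decimals and in either direction, by 1211 other probe sets, that of IRF9 by 38, and those of the 2 IRF1 probe sets by 56 and 53. Of the 6642 probe sets with a mean level between 1.5 and 3, 87.6% had a size of difference held by at least 10 probe sets of the whole table, a share that was 4.55% above a level of 7. The dim members thus sit on a coarse scale of steps, on which a small change can read as none.

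**Figure D3:**
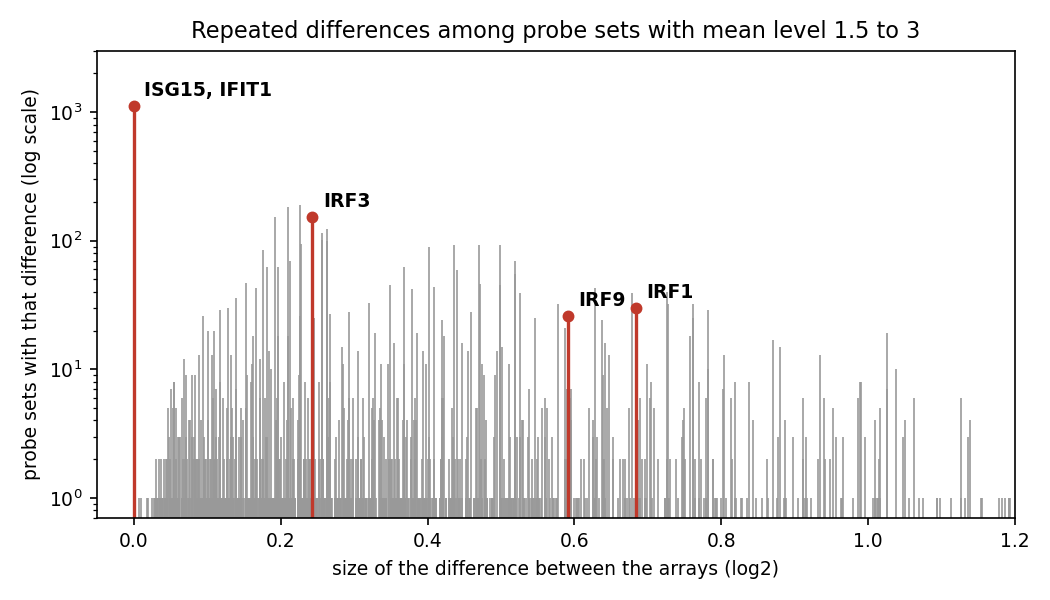
Number of probe sets (log scale) holding each size of difference between the arrays (log2, to 6 decimals) among probe sets with a mean level between 1.5 and 3. The main probe sets of IRF1, IRF3, IRF9, ISG15 and IFIT1 (red) all fall on sizes held by many probe sets, with ISG15 and IFIT1 at 0.

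The double-stranded RNA binding enzymes were measured further above the detection level, where repeated sizes of difference were less common but still present. A size held by at least 10 probe sets was found for 65.8% of probe sets with a mean level from 3 to 5. From 5 to 7 that share was 26%. EIF2AK2, whose product PKR stops translation by phosphorylating eIF2, read 5.22 on the miR-941 array and 5.48 on the control array by probe set 213294_at, a difference of -0.25. Probe set 204211_x_at read 3.80 on the miR-941 array and 4.05 on the control array, a difference of -0.24. A further probe set, 242898_at, read 0.41 on both arrays, below the detection level. EIF2AK2 was lower on the miR-941 array by both detected probe sets. Both differences were smaller than the spread of 0.31 among probe sets of one gene. That spread pools all detected levels and does not measure variation between arrays. Differences had an SD of 0.24 among probe sets with a mean level from 5 to 7 and 0.33 from 3 to 5. The -0.25 of 213294_at lay just beyond the first SD, and the -0.24 of 204211_x_at within the second. The suffix _x_at marks probe sets that may bind other transcripts. The size of the 213294_at difference was shared by 16 other probe sets, and that of the 204211_x_at difference, the same size as for IRF3, by 1211.

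ADAR, made from a constitutive and an interferon-inducible promoter, read 9.13 on the miR-941 array and 9.24 on the control array by its 1 probe set, 201786_s_at. The difference of -0.11 was within the pooled spread of 0.31 and within the SD of 0.21 among probe sets with a mean level above 7. No other probe set held the same size of difference. The probe set does not tell the promoters' transcripts apart in the annotation used here.

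Since a response shared by both arrays would not show as a difference, the levels of other response genes were read on each array. Of 43 other classic interferon-stimulated genes, 21 were detected (48.8%), below the 66.5% of all genes. Above the level stood 23 on the miR-941 array and 20 on the control array, where all genes gave 67.8% and 66.0%. The antiviral GTPase gene MX1 read 0.72 on the miR-941 array and 0.48 on the control array, and OAS2 read 0.63 on both. OAS3 had 0.99 on the miR-941 array and 0.80 on the control array. IFIT2 read 0.99 on both arrays, and IFIT3 read 0.97 on the miR-941 array and 0.34 on the control array. These 5 genes all read under 1 on both arrays. IFIT2, OAS3 and IFIT3 were above the detection level of 0.92 on the miR-941 array, and IFIT2 alone was on the control array. By its mean, only IFIT2 was detected.

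The 4 genes of this list with the highest means read well above the detection level on both arrays. ZC3HAV1, an antiviral protein that binds viral RNA, read 6.48 on the miR-941 array and 6.46 on the control array. HERC5, the ligase that attaches ISG15, read 6.36 on the miR-941 array and 6.05 on the control array, a difference of 0.31 on 1 probe set. SAMHD1, which breaks down deoxynucleotides, read 6.20 on the miR-941 array and 6.14 on the control array, and PLSCR1, a phospholipid scramblase, read 5.42 on the miR-941 array and 5.44 on the control array. Each of these stayed within 0.31 between the arrays.

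Among the 21 detected genes of this list 12 were higher on the miR-941 array, 5 lower and 4 equal. Of all detected genes, 46.3% were higher and 42.4% lower. The median difference of the 21 was 0.06, with none past 2-fold, where 0.517% of all detected genes were. It was 0.19 with the median over detected probe sets, 0.20 with the mean over all probe sets (14 higher, 4 lower) and 0.18 with no filter on level (25 higher and 9 lower of 43). With the difference between the array medians (0.06) removed, 11 were higher and 10 lower. Of all genes that differed, 54.4% were higher with the mean over all probe sets and 55.6% with no filter. With the difference between the array medians removed, that share was 41.3%. IFITM3, a membrane protein that blocks virus entry, had 0.58 (3.90 on the miR-941 array, 3.33 on the control array). ISG20, an exonuclease, had 0.56 (1.37 on the miR-941 array, 0.81 on the control array). OASL and EPSTI1 had the lowest differences, -0.44 each, and the second detected OASL probe set was equal on both arrays. The IFITM genes are near copies of each other, so their probe sets may not tell them apart. Of the 34 genes of this list with a promoter in the RefSeq table, 25 (73.5%) held the ISRE core, against 4.38% of all genes there.

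Over the array, 613 measured genes held an ISRE core in a listed promoter, and 59.9% of them were detected, against 69.2% of the 15384 measured genes with a listed promoter. The 367 detected ones had a median difference of 0.00, with 157 higher, 164 lower and 46 equal. Of these 2 (0.545%) were past 2-fold, where 0.517% of detected genes with a listed promoter were. Genes with a GAS core, 875 of them detected, also had a median of 0.00 and 1 past 2-fold (0.114%).

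**Figure D4:**
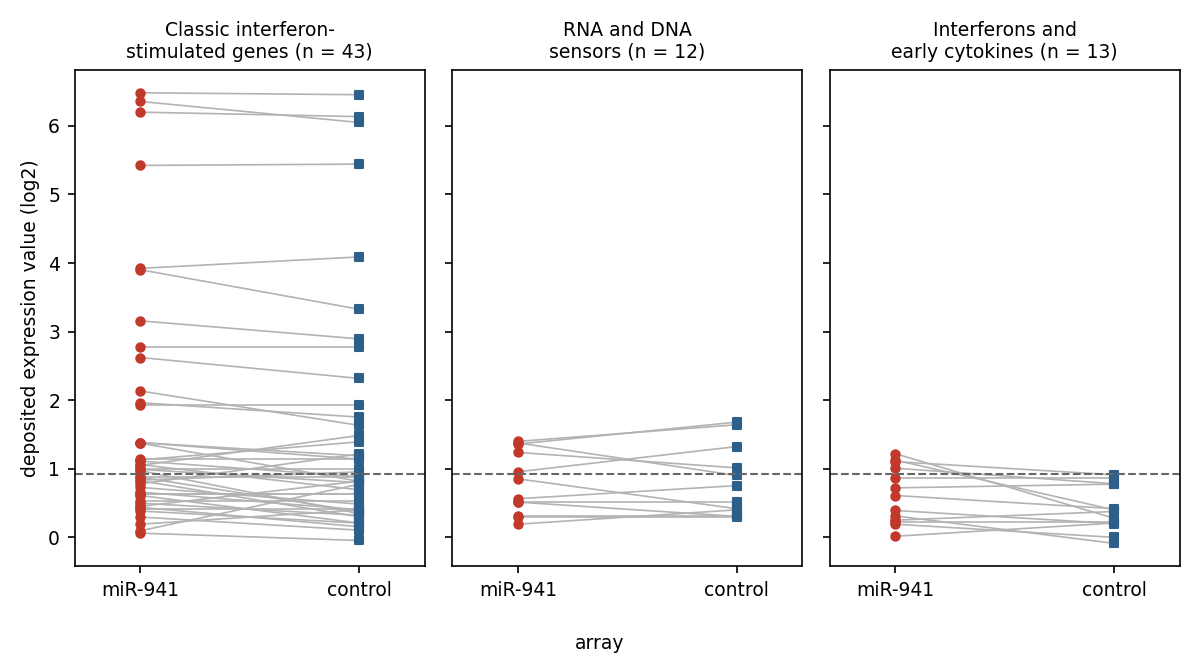
Deposited log2 value of the brightest probe set of each gene on the miR-941 array (left, circles) and the control array (right, squares), joined by a line, for 43 classic interferon-stimulated genes, 12 sensors and 13 interferons and early cytokines. The dashed line is the detection level, and most sensors and cytokines lie close to it or below it on both arrays.

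The sensors and the interferons themselves were dim. Of 12 sensors of RNA or DNA, 5 were detected (41.7%, against 66.5% of all genes). All had means under 2 (RIGI, DHX58, TLR7, TLR9 and NLRP1). RIGI, the sensor of uncapped RNA ends, read 1.40 on the miR-941 array and 1.64 on the control array. IFIH1, which senses long duplexes, read 0.85 on the miR-941 array and 0.41 on the control array, and TLR3, the endosomal sensor of double-stranded RNA, read 0.51 on the miR-941 array and 0.30 on the control array. DHX58, a regulator of both receptors, had a difference of 0.23. TLR9, the sensor of unmethylated DNA, had 0.47, TLR7, a sensor of single-stranded RNA, had -0.32 and the inflammasome gene NLRP1 had -0.37. The median over the 5 was -0.24, but it was 0.23 with differences averaged over all probe sets, so no direction is given.

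IFNB1, the interferon beta gene, read 0.21 on both arrays, below the detection level. IFNL2 read 0.87 on both. Of the 13 interferons and early cytokines, 1 passed by its mean, the chemokine CCL5, at 1.10 on the miR-941 array and 0.91 on the control array. Counted by array, 4 were above the level on the miR-941 array and none on the control array. Beside CCL5 these were the interferon lambda gene IFNL1 (1.22 on the miR-941 array, 0.27 on the control array), the interferon-induced chemokine CXCL10 (1.12 on the miR-941 array, 0.40 on the control array) and TNF (1.00 on the miR-941 array, 0.78 on the control array). IFNL1 is named because of its values. Of all genes, 67.8% were above the level on the miR-941 array and 66.0% on the control array. Markers of T, B and myeloid cells had 2 of 10 above it on the miR-941 array and none on the control array. Their ranges were 0.31 to 1.10 (miR-941) and 0.22 to 0.91 (control). Endothelial and fibroblast markers had 3 of 9 above it on the miR-941 array and 2 on the control array. Epithelial, liver and erythroid markers had 3 of 6 on each array. What lies behind the cytokine readings was not tested.

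Upstream of the members, the measured receptors, kinases and adaptors were all detected, where 66.5% of all genes were. All 9 receptor and Janus kinase genes passed the level, 4 higher and 5 lower (median -0.06). IFNAR1, a chain of the interferon alpha and beta receptor, read 4.19 on the miR-941 array and 4.59 on the control array (-0.41), with 3 of its 4 probe sets lower. The partner chain IFNAR2 read 5.48 on the miR-941 array and 5.20 on the control array (0.28), with all 3 probe sets higher. IL10RB, shared by the interferon lambda receptor, had 0.29, and the kinase JAK2 had -0.68, read at 1.05 on the miR-941 array and 1.73 on the control array.

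All 17 measured adaptors and kinases were detected, 6 higher, 9 lower and 2 equal (median -0.06). MAVS, the mitochondrial adaptor of RIG-I-like receptors, read 4.77 on the miR-941 array and 5.17 on the control array (-0.40), with 3 of 4 probe sets lower. TBK1, the kinase of IRF3, read 5.74 on the miR-941 array and 6.19 on the control array (-0.45, 1 probe set), and its adaptor TANK had -0.75, with its 2 detected probe sets differing in opposite directions. TRIM25, a ubiquitin ligase for RIG-I, had 0.51, higher by both probe sets, and TICAM1, the adaptor of TLR3, had 0.40 on a dim reading of 1.59 on the miR-941 array and 1.19 on the control array.

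Among the remaining IRF and STAT factors and RELA and NFKB1, 8 of 12 were detected (66.7%, against 66.5% of all genes). Of these, 2 were higher, 5 lower and 1 equal (median -0.18, but 0.02 with differences averaged over all probe sets). IRF7, the factor that amplifies interferon production, read 0.66 on both arrays, below the detection level. IRF8 had 0.31 and STAT3 0.06, while STAT4 had -0.47 and STAT5B -0.39, though STAT5B had a median of 0.00 over 5 probe sets.

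Of 15 detected genes for other double-stranded RNA binding proteins, 12 were lower and 3 higher, where 42.4% of all detected genes were lower. The median was -0.16 and none passed 2-fold, where 0.517% of all detected genes did. The split was the same with the difference between the array medians removed, but it depended on how a gene's probe sets were combined. With the median over detected probe sets 9 were lower and 6 higher (median -0.04), and with the mean over all probe sets 9 were lower and 6 higher (median -0.02). NFX1, grouped here although it is better known as a transcription factor, had -0.33 with all 5 probe sets lower. ZNF346, a zinc finger protein that binds duplex RNA, had -0.31, but 2 of its 3 probe sets were higher. STAU1, which carries structured mRNAs, had 0.15 and the editing enzyme ADARB1 0.18, each with probe sets on both sides of 0.

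Of 16 genes of the eIF2 pathway on which PKR acts, 8 were higher and 8 lower (median 0.00). EIF2S1, the subunit that PKR phosphorylates, read 8.09 on the miR-941 array and 7.65 on the control array (0.43), higher by all 3 probe sets. EIF2B3 had 0.34, the phosphatase subunit PPP1R15B -0.42 and ATF4, the factor whose translation rises when eIF2 is phosphorylated, -0.22.

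Negative regulators of the response had a median of 0.00, with 8 of 19 higher and 9 lower. PTPN6, a phosphatase of blood cell signalling, had 0.68 on dim readings, and IRF2BP1 had 0.18. TNFAIP3, which curbs NF-kB and is itself induced by it, read 3.35 on the miR-941 array and 3.86 on the control array (-0.50), lower by both probe sets, and ATG12 had -0.32 with 1 of 3 probe sets higher.

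Antigen presentation genes, several of which interferon gamma and IRF1 induce, were split: 6 of 11 detected genes were higher, 4 lower and 1 equal (median 0.04). With the difference between the array medians removed, 5 were higher and 6 lower. TAPBP and PSMB10 had 0.24 each, HLA-F -0.15 and HLA-B -0.14. HLA genes resemble each other closely, so their probe sets may not tell them apart.

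**Figure D5:**
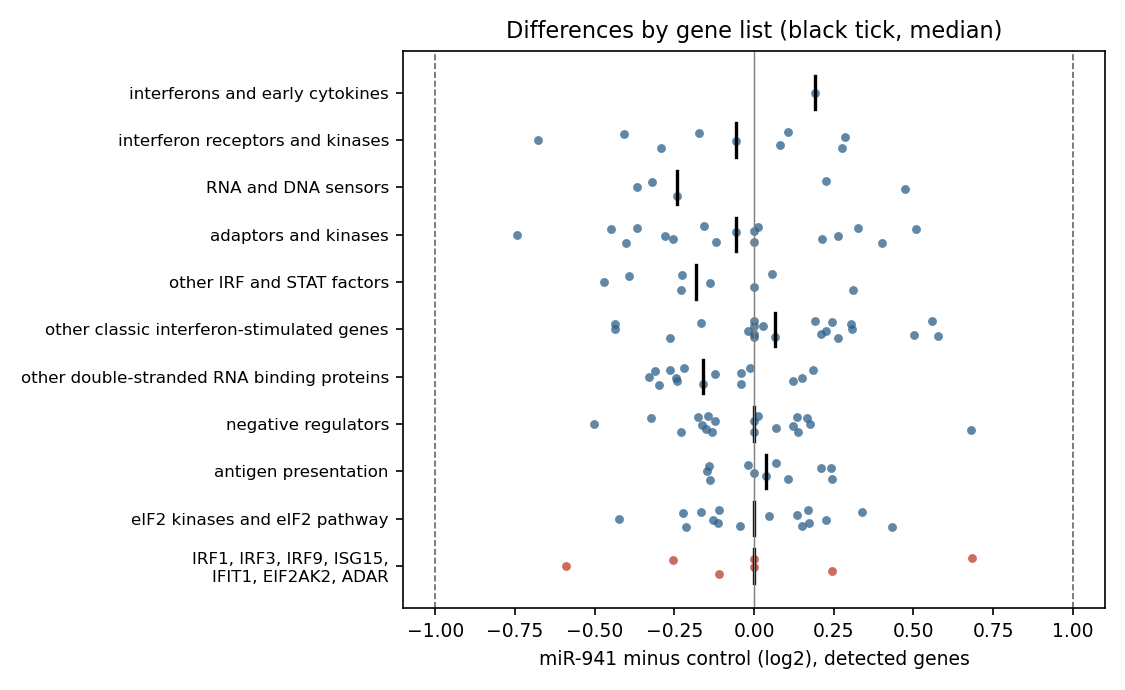
Difference between the arrays (miR-941 minus control, log2) of each detected gene, by gene list, with the list median as a black tick and the described members in red in the bottom row. Every gene of these lists lies between the dashed lines at 2-fold.

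Over all 10 pathway lists, 122 of 172 measured genes were detected (70.9%), against 66.5% of all genes. Of all detected genes, 0.517% differed by 2-fold, 46.3% were higher and 42.4% lower. Of the 122, none differed by 2-fold, 52 were higher, 60 lower and 10 equal, and the median was 0.00. With differences averaged over all probe sets 67 were higher and 52 lower. All detected genes then gave 6768 higher and 5663 lower, 54.4% higher among those that differed. Of 9 measured genes described in the embryonic kidney line, 8 were detected, among them NEFL (7.37 on the miR-941 array, 6.99 on the control array), VIM (8.70 on the miR-941 array, 8.82 on the control array) and LIN28B (7.09 on the miR-941 array, 7.07 on the control array). Some markers of other cell types were detected too: 2 of 10 for T and B cells and myeloid cells, 3 of 9 for endothelial cells and fibroblasts, and 3 of 6 for epithelial, liver and red cells. The highest was HBB, with 7.54 on the miR-941 array and 6.95 on the control array, followed by the fibroblast gene COL1A1 with 2.48 on the miR-941 array and 2.72 on the control array. The other detected ones were CD79A, ITGAM, PECAM1, VWF, KRT5 and APOA1, all dim, with the highest mean 1.26 for KRT5. PTPRC, CD3D, CDH5 and ALB were among those below the level on both arrays. Of the kidney line genes, KRT8 fell below the level by its mean (0.80 on the miR-941 array, 0.99 on the control array). PAX2 passed by its mean but read 0.86 on the control array. The actin control differed by -0.66 at its 5' end and -0.04 at its 3' end, and that of GAPDH by -0.19 and 0.05. Where the member probe sets lie along their mRNAs is not given in the sources used here, so the part of this end effect in their differences was not tested.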

How the data were processed

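RNA from immunoprecipitates of 293T cells was measured on 2 Affymetrix U133 Plus arrays of the human genome, 1 per group, grouped by the transfected oligonucleotide named in the labels. The authors deposited 1 value per probe set, quantified with RMA in R per the labels' protocols; RMA, affy and MAS5 stand in the submitters' processing notes with no version or role. Log base and centring are not given in the sources used here. The deposited values were taken as log2, since they reach 13.7 (miR-941) and 13.6 (control) and the natural logarithm of a 16-bit reading cannot exceed 11.1. Array medians were 0.98 (miR-941) and 0.92 (control).

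Of 54675 probe sets, 41091 had 1 gene symbol in the platform annotation, 1801 several, 11721 none and 62 were controls. Those with 1 symbol were used, and 41037 were updated by Entrez identifier to RefSeq symbols of GRCh38.p14. The brightest probe set stood for its gene, ties going to the name that sorts first. Promoters and miR-941 are from RefSeq. With 1 array per group no test was made. The members, gene lists, detection level and rules were chosen with earlier results of these data known. Genes named outside the members are the 2 highest and 2 lowest detected of each list, the 4 with the highest mean among interferon-stimulated genes, cytokines and sensors, and a fixed set of pathway genes. Python 3.11.15, pandas 2.3.3, numpy 2.4.6 and statsmodels 0.14.6 were used. The alternatives were another gene summary, probe set type, level filter, fold threshold, trend removal, normalization and centring.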

Additional observations from a re-analysis of the deposited data

How the results depend on the processing

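The members' median difference of 0.00 ran from -0.18 to 0.00 over the 9 alternatives, and no member passed 2-fold in any of them. At 1.5-fold, 2 members passed (IRF1 and IRF9), and at 4-fold none. Above the 75th percentile of level (3.37), 2 members (EIF2AK2 and ADAR) and 6 of the 43 other interferon-stimulated genes were detected, a filter that tests fewer genes. Without probe sets ending in _x_at or _s_at, ISG15 and ADAR have no value and 5 members were detected. IRF1 ran from 0.62 to 0.72 and IRF9 from -0.65 to -0.59 over the alternatives that keep them. In all, 34 of 37 alternative values of the main results, 56 of 56 for single members and 86 of 88 for lists lay within 0.31, the spread among probe sets of one gene, or within 1.5 times for counts. Part of this tally was fixed in advance. Level filters leave a single member's value unchanged, and the shift of -0.06 is smaller in size than 0.31. With no member past 2-fold, none can pass 4-fold. The exceptions among lists were the sensors, at 0.23 with differences averaged over probe sets and at 0.23 without _x_at and _s_at probe sets. Removing the difference between the array medians moved all genes by -0.06 and the higher share of differing genes to 41.3% from 52.2%. ISG15 and IFIT1 then read -0.06 each, as did the members' median, with 2 higher and 5 lower. The genes past 2-fold, 30 higher and 38 lower, were then 13 higher and 51 lower. They were 4 higher and 7 lower above the 75th percentile, 24 and 18 with the median and 14 and 12 with the mean over probe sets. Array signal near the detection level limits OAS1, the sensors and the cytokines most. No paired analysis was possible because there is only 1 array a group, and none could be left out.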
